A study of Mus musculus with 7 samples.

Results

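The genes described here are 10 that encode core parts of the basement membrane: the nidogens Nid1 and Nid2, the laminin chains Lama1, Lama2, Lama4, Lama5, Lamb1, Lamb2 and Lamc1, and perlecan (Hspg2). They were taken by symbol from the 26607 genes listed for each library, and all 10 were found, were above 0 in at least 1 library and had a mean of at least 1 CPM. RNA-seq was performed on C2C12 myotubes, the multinucleated cells that this mouse myoblast line forms when serum is withdrawn, to ask how contraction evoked by electrical pulse stimulation (EPS) changes the muscle transcriptome. The control group held 3 untreated libraries (replicates 1, 3 and 4), and the EPS group held 4 libraries (replicates 1 to 4) from myotubes stimulated for 24 hours from day 3 of differentiation and rested for 1 hour. No genotype, transgene or drug separates the groups. All of the libraries come from a single line cultured on its own, so the matrix described is that made by C2C12 cells, without the fibroblasts, vessels and nerves of a muscle.

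The basement membrane is the thin sheet of matrix that wraps each muscle fibre. Its laminins are heterotrimers of an alpha, a beta and a gamma chain that polymerise at the cell surface, where they are held by dystroglycan and integrins. Type IV collagen forms a second network, and nidogens, which bind the laminin gamma 1 chain and type IV collagen, together with the heparan sulphate proteoglycan perlecan, link the networks. In muscle the main laminin of the mature fibre carries the alpha 2 chain, and loss of that chain causes a congenital muscular dystrophy.

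Nidogen binds laminin through a short stretch in an EGF-like repeat of the gamma 1 chain. The coding bases of this stretch in Lamc1, with the matching bases of another gamma chain gene, Lamc3, are shown because the comparison turned on a nidogen gene and Lamc1 encodes its partner. In Lamc1 the 7 codons of the binding site, 831 to 837 of the reading frame, lie in exon 14 of 28 at chr1:153243361-153243381 on the minus strand of GRCm38. The corresponding bases of Lamc3 lie in exon 14 of 28 at chr2:31920598-31920618 on the plus strand. Each line gives 81 coding bases, 5′ to 3′ on the coding strand, with the 21 bases of the site in capitals:
Lamc1: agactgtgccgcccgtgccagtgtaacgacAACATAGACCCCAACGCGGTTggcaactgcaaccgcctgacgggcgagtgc
Lamc3: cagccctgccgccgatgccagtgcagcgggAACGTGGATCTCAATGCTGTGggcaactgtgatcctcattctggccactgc
Lamc3 shared 14 of the 21 site bases with Lamc1 and encoded 5 of its 7 residues there. Over the 81 bases it shared 52 with Lamc1. The complete site was found in 1 of the 11 genes whose reading frames were searched, Lamc1, and in none of the alpha, beta, nidogen or perlecan genes.

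Nid1 was the member that rose with EPS, about 3-fold, while the other 9 members did not pass both thresholds used here, P under 0.01 before adjustment and a fold above 2, which are those of the study's results. The study's methods name a stricter P of 0.001, which Nid1 passed in both edgeR tests and DESeq2 but not in the main limma fit. Of the other limma settings, Nid1 passed it with a pseudocount of 0.1, with a minimum mean of 1 CPM and without control replicate 3. Nid1 encodes nidogen-1 and is annotated at chr13:13437551-13512269 on the plus strand (ENSMUSG00000005397.8). Its levels were 238, 392 and 163 CPM in control replicates 1, 3 and 4, where CPM are the reads of a gene for every 1000000 reads counted in that library. In EPS replicates 1 to 4 they were 620, 635, 576 and 1352 CPM. Every EPS library lay above every control library, and EPS replicate 4 stood far above the other 3 of its group. The mean was 265 ± 117 CPM in the control group (SD, n = 3) and 796 ± 372 CPM in the EPS group (SD, n = 4). On the log2(CPM + 1) scale, the change was 1.58 (SE 0.38, 95% interval 0.72 to 2.44), or 2.99-fold, with a Benjamini-Hochberg adjusted p of 0.152 in limma over 19144 genes. Before adjustment limma gave P = 0.00260, and the exact two-sided permutation test gave 0.0286, the smallest p that 3 libraries against 4 allow. By adjusted p, Nid1 passed 0.05 in edgeR's quasi-likelihood test (0.0210), the edgeR exact test (0.00267) and DESeq2 (0.00224), each run on whole reads recovered from the CPM. The exact test was run without TMM, edgeR's scaling between libraries. Without control replicate 4, the library with the fewest genes above 0, the change was 1.28 with a limma P above 0.01. This ends the call (limma adjusted p = 0.2815). Without EPS replicate 4 the change was 1.29 and still passed both thresholds (limma adjusted p = 0.229).

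Over all 19144 genes above 0 in at least 1 library, 269 or 1.41% passed both thresholds, 185 or 0.966% with higher and 84 or 0.439% with lower levels after EPS. With quantile normalization 130 were higher and 122 lower, and with median-of-ratios scaling 134 and 120. Of the 10 members 1 passed, Nid1. Its groups did not overlap, which held for 1485 genes or 7.76% of those tested in the higher direction and for 10.6% in either direction. Groups lay apart in the lower direction in none of the members and in 2.85% of all genes. In the main limma fit, none of the members and 0.554% of all genes passed P under 0.001 and 2-fold. No member had an adjusted p under 0.05 in limma, where 0.141% of all genes did. An unadjusted p under 0.05 in limma was found for 1 of the 10 members and for 11.6% of all genes, so that count is near the background. In edgeR's quasi-likelihood test, the edgeR exact test and DESeq2, Nid1 was the 1 member with an adjusted p under 0.05, beside 1.51%, 2.37% and 2.63% of all genes. The median log2 change of the 10 members was 0.11, beside 0.041 over all genes tested and 0.10 over the 12256 genes with a mean of at least 1 CPM. Libraries may come from separate cultures or not, since the labels do not say, and the p-values measure the spread between these libraries only.

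**Figure D1:**
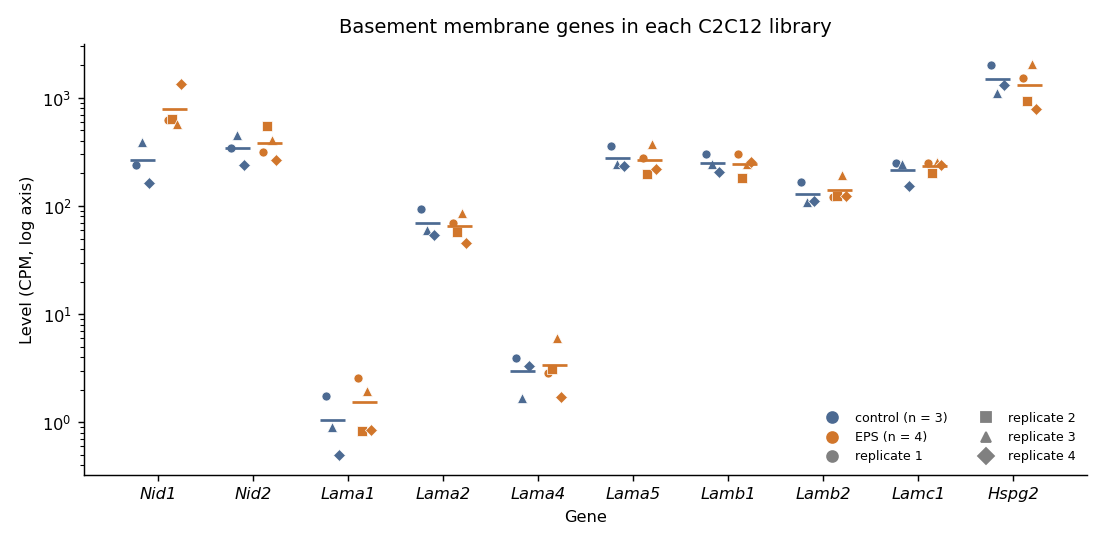
Level of each of the 10 genes in every library (CPM, log axis). Blue points are the 3 control and orange points the 4 EPS libraries, the marker shape gives the replicate number and the bar the group mean. Nid1 is the 1 gene whose groups do not overlap, with control libraries between 163 and 392 CPM and EPS libraries between 576 and 1352 CPM.

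Nid2 encodes nidogen-2, the second mammalian nidogen (chr14:19751265-19811787, plus strand). Its levels were 344, 454 and 241 CPM in the control libraries and 314, 546, 409 and 266 CPM in the EPS libraries, and the groups overlapped. Means were 346 ± 107 and 384 ± 123 CPM (SD, n = 3 and n = 4). The log2 change was 0.14 (SE 0.30, 95% interval -0.54 to 0.82, limma adjusted p = 0.869) and the interval holds both a fall and a rise of less than 2-fold. EPS replicate 4, the library with the highest Nid1, was the second lowest of the 7 for Nid2.

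Levels of different genes were compared per kilobase of annotated exon. On this scale Nid1 was below Nid2 in all 3 control libraries, with ratios of 0.516, 0.644 and 0.506. In EPS libraries the ratios were 1.47, 0.867, 1.05 and 3.78, above 1 in 3 of 4. Nid1 made up 33.6% to 39.2% of the nidogen transcripts in control and 46.4% to 79.1% in EPS libraries. Relative to Lamc1, whose product carries the site printed above, Nid1 was 1.13, 1.93 and 1.27 in control and 2.97, 3.76, 2.70 and 6.69 in EPS libraries. For Nid2 the same ratio was 2.19, 2.996 and 2.51 against 2.02, 4.34, 2.58 and 1.77. Both nidogens together came to between 3.32 and 4.92 times Lamc1 in control and between 4.98 and 8.46 times in EPS libraries, so the summed ratios did not overlap either, with the highest control (4.92) close to the lowest EPS library (4.98). These ratios describe the Nid1 result and were not tested.

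**Figure D2:**
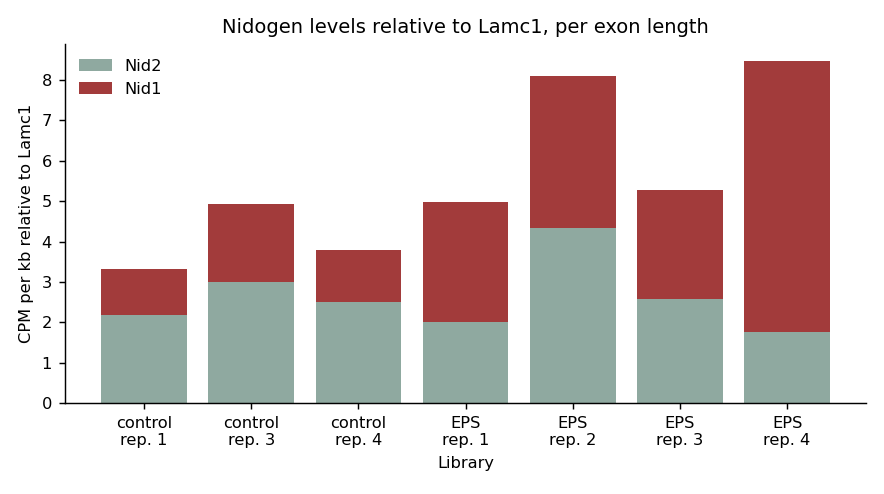
Level of Nid2 (grey-green) and Nid1 (red), stacked, in CPM per kb of exon relative to Lamc1 in the same library. The Nid1 part is 1.13 to 1.93 in the control libraries and 2.70 to 6.69 in the EPS libraries, whereas the Nid2 part overlaps between the groups.

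The sequence upstream of Nid1 is shown because it is the member that rose. RefSeq promoter windows, 250 bases before to 50 after a gene's start on GRCm38.p6, were given for 6 of the 10 members (Nid1, Lama2, Lama5, Lamb1, Lamb2 and Hspg2). The 199 bases at chr13:13437352-13437550, plus strand, that precede the first annotated Nid1 exon had a GC content of 63.8%. The RefSeq start lies downstream of the start of that exon in GENCODE. The GC box GGGCGG is in capitals, at position -67 from the RefSeq start and -16 from the GENCODE start:
Nid1: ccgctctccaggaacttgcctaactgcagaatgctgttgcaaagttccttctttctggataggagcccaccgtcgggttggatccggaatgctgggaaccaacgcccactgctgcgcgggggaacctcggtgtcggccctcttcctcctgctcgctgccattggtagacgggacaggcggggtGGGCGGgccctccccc
On either strand of the 300-base windows, GGGCGG was found 1 time in Nid1, 1 time in Lama2, 2 times in Lamb1, 4 times in Lama5, 5 times in Hspg2 and not in Lamb2, and 35.7% of all 32851 windows hold it. The E-box CANNTG, present in 72.3% of windows, was found 2 times each in Lama5 and Lamb1 and 1 time each in Lama2 and Lamb2, but not in Nid1 or Hspg2. The TATA box TATAAA (13.6% of windows), the AP-1 motif TGANTCA (7.81%) and the antioxidant response motif TGACNNNGC (12.4%) were in none of the 6. These are matches of letters and do not show that a factor binds there.

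The gamma 1 chain, encoded by Lamc1 (chr1:153218922-153332786, minus strand), is part of most laminins, and it did not pass. Lamc1 was at 251, 242 and 153 CPM in the control libraries and at 249, 201, 254 and 241 CPM in the EPS libraries. Control replicate 4 was the lowest and the other 6 libraries lay within 201 to 254 CPM. The means were 216 ± 54.2 and 236 ± 23.99 CPM (SD, n = 3 and n = 4), and the log2 change was 0.16 (SE 0.21, 95% interval -0.31 to 0.62, limma adjusted p = 0.813).

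Per kilobase of exon, both beta chains among the members were expressed at similar levels, and neither passed. Lamb1 (chr12:31265234-31329644, plus strand), the widely expressed beta chain, was at 303, 244 and 206 CPM in control and at 301, 181, 242 and 254 CPM in EPS libraries. Its means of 251 ± 48.7 and 245 ± 49.3 CPM (SD, n = 3 and n = 4) gave a log2 change of -0.041 (SE 0.21, 95% interval -0.53 to 0.44, limma adjusted p = 0.944). Lamb2 (chr9:108479736-108490530, plus strand) encodes the beta chain that is concentrated at the neuromuscular junction. It was at 165, 110 and 112 CPM in control and 120, 123, 194 and 123 CPM in EPS libraries. EPS replicate 3 stood above the other EPS libraries, and control replicate 1 above the other controls. The means were 129 ± 31.3 and 140 ± 35.9 CPM, and the log2 change was 0.11 (SE 0.22, 95% interval -0.40 to 0.62, limma adjusted p = 0.869). Of the 3 beta chains, per length, Lamb1 held 46.7% to 49.6% in control and 37.2% to 50.3% in EPS libraries, and Lamb2 held 36.5% to 43.1% and 32.7% to 48.6%.

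Of the alpha chains, which bind the cell surface receptors, Lama5 was the main one by level and no member passed. Lama5 (chr2:180176373-180225859, minus strand) is an alpha chain of many developing and adult tissues. It was at 358, 247 and 232 CPM in control and 275, 198, 373 and 221 CPM in EPS libraries, and gave a log2 change of -0.079 (SE 0.26, 95% interval -0.66 to 0.50, limma adjusted p = 0.916). Per length, Lama5 held 83.2% to 84.6% of the alpha chain transcripts in control and 81.8% to 86.3% in EPS libraries. Lama2 (chr10:26980036-27619758, minus strand), the alpha chain of mature muscle, was at 94.2, 60.1 and 53.7 CPM in control and 69.3, 57.5, 86.0 and 45.9 CPM in EPS libraries. Its log2 change was -0.093 (SE 0.26, 95% interval -0.68 to 0.49, limma adjusted p = 0.897), and its share of the alpha chains was 13.7% to 15.3% in control and 12.5% to 16.5% in EPS libraries. The ratio of Lama5 to Lama2 per length was 5.46 to 6.19 in control and 4.94 to 6.91 in EPS libraries.

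The remaining alpha chains among the members were at low levels. Lama4 (chr10:38965515-39110188, plus strand), known from vessels and peripheral nerve, was at 3.91, 1.69 and 3.35 CPM in control and 2.84, 3.12, 6.03 and 1.70 CPM in EPS libraries. These levels rest on 28 to 132 reads a library. Its log2 change was 0.11 (SE 0.36, 95% interval -0.71 to 0.93, limma adjusted p = 0.917). Lama1 (chr17:67697259-67822647, plus strand), the alpha chain of the early embryo, was at 1.75, 0.903 and 0.497 CPM in control and 2.56, 0.828, 1.96 and 0.850 CPM in EPS libraries, from 11 to 55 reads. The log2 change was 0.30 (SE 0.30, 95% interval -0.38 to 0.98, limma adjusted p = 0.758), on a scale where the pseudocount of 1 pulls so low a gene toward 0. Per length Lama4 held at most 1.29% and Lama1 at most 0.913% of the alpha chain transcripts in any library.

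Of the laminin chains outside the members, Lama3, Lamb3 and Lamc3 were read, and none passed in limma, edgeR or DESeq2 (median log2 change 0.29, 1 of the 3 with an unadjusted p under 0.05 in limma, beside 11.6% of all genes). Lamb3, a beta chain best known from epithelial basement membranes, was at 35.6, 45.9 and 34.7 CPM in control and 67.5, 48.7, 61.6 and 47.5 CPM in EPS libraries. The groups did not overlap, and the log2 difference was 0.53 (limma adjusted p = 0.302). Lamc3 had means of 2.03 ± 0.790 and 2.66 ± 0.618 CPM and a log2 difference of 0.29 (limma adjusted p = 0.703). Lama3, an alpha chain of epithelia, had a mean of 0.675 ± 0.242 CPM in control and 0.444 ± 0.224 CPM in EPS libraries (SD, n = 3 and n = 4).

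**Figure D3:**
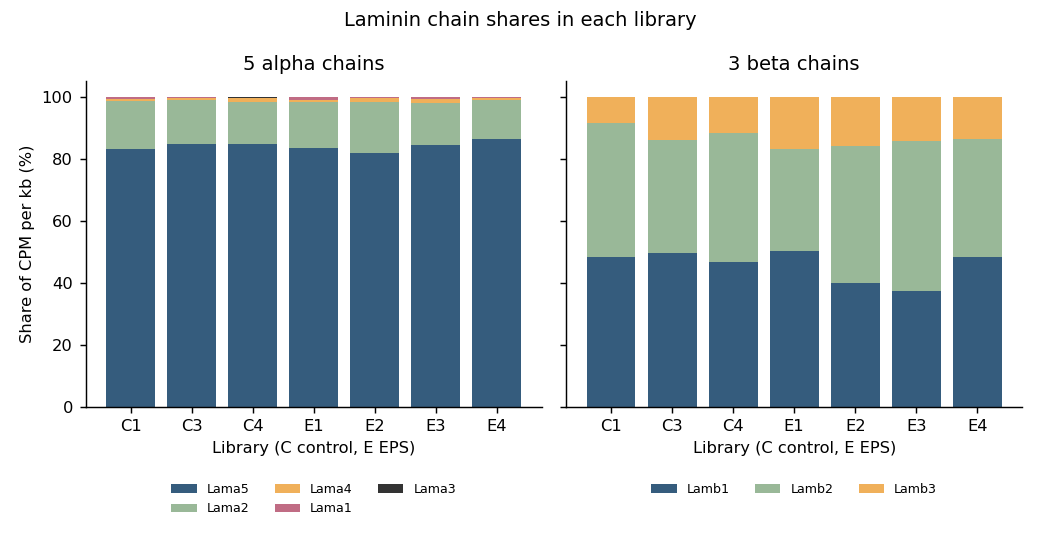
Share of each chain in the alpha and beta chain transcripts of each library (percent of CPM per kb of exon; C control, E EPS, numbers are replicates). Lama5 holds 81.8% to 86.3% of the alpha chains in all 7 libraries, and Lamb1 holds 37.2% to 50.3% of the beta chains.

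Hspg2 encodes perlecan, the large proteoglycan that binds nidogen, laminin and dystroglycan (chr4:137468769-137570630, plus strand). It was at 2017, 1098 and 1326 CPM in control and at 1514, 926, 2072 and 793 CPM in EPS libraries. EPS replicate 3 was the highest and EPS replicate 4 the lowest of the 7 libraries, so both extremes were in 1 group. The means were 1480 ± 478 and 1326 ± 588 CPM (SD, n = 3 and n = 4), and the log2 change was -0.22 (SE 0.42, 95% interval -1.16 to 0.73, limma adjusted p = 0.869). This interval, the widest of the 10, holds both a 2-fold fall and no change.

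Per kilobase of exon the 10 genes fell into 4 ranges of level by their mean over the 7 libraries, which pools the groups. Perlecan and the nidogens were highest, with means over the 7 libraries of 97.3 (Hspg2), 81.8 (Nid1) and 71.1 (Nid2) CPM per kb. Lamc1, Lamb1, Lama5 and Lamb2 followed at 27.5, 24.9, 23.9 and 22.3 CPM per kb, and their levels overlapped over the libraries. Lama2 was at 4.08 CPM per kb, and Lama4 and Lama1 were at 0.268 and 0.138 CPM per kb. In the control group the order at the top was Hspg2 (103 ± 33.4), Nid2 (67.0 ± 20.6) and Nid1 (38.1 ± 16.8). In the EPS group it was Nid1 (115 ± 53.5), Hspg2 (92.7 ± 41.1) and Nid2 (74.2 ± 23.8), all in CPM per kb with the SD. In each group the intervals of mean ± SD overlapped between neighbours in the order, although Nid1 was below Nid2 in every control library. Differences between genes within a library were not tested. In control replicates 1, 3 and 4 Nid1 was at 34.3, 56.5 and 23.5 CPM per kb, beside 31.5, 21.7 and 20.4 for Lama5 of the next range.

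**Figure D4:**
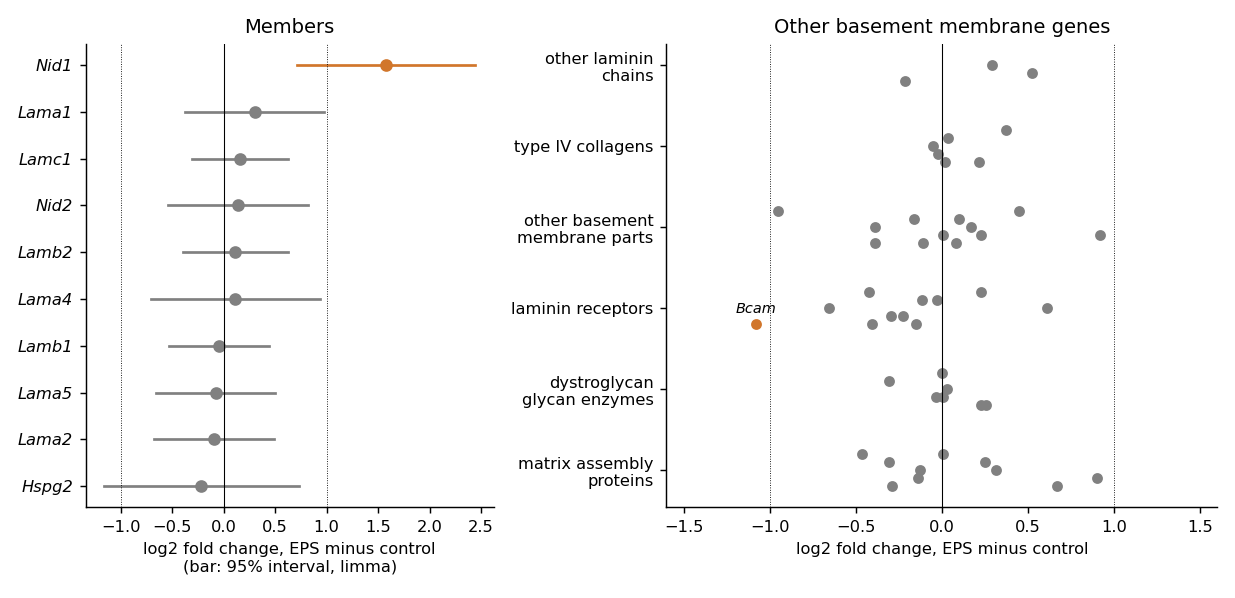
Left, log2 change of each member, EPS minus control, with its 95% interval from limma. Right, log2 changes of the other basement membrane genes, 1 point a gene in 6 lists, with orange for genes past P under 0.01 and 2-fold and dotted lines at 2-fold. Nid1 at 1.58 is the 1 member past both thresholds, and Bcam at -1.08 is the 1 gene of the lists past them.

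The other genes of the basement membrane were counted in 6 lists, and 1 of the genes shown, a receptor, passed both thresholds. None of the 3 laminin chains described above did. Of the 6 type IV collagen chains, the second network of the membrane, none passed and the median was 0.025. No chain had an unadjusted p under 0.05 in the main limma fit, edgeR or DESeq2, where 10.6% to 11.7% of all genes did. Col4a2, whose product pairs with that of Col4a1, was at 249 ± 29.2 and 246 ± 34.97 CPM (SD, n = 3 and n = 4), and Col4a5, the X-linked chain, had a log2 difference of 0.37 (limma adjusted p = 0.763). Among 12 other membrane components, none passed in limma on log2(CPM + 1) with all 7 libraries, and 2 had an unadjusted p under 0.05, beside 11.6% of all genes. The extremes there were the matricellular gene Smoc2, at 12.5, 15.1 and 15.3 CPM in control and 11.4, 5.36, 5.57 and 6.48 CPM in EPS libraries (log2 -0.95, limma adjusted p = 0.234), and Tinagl1, at 3.71 ± 1.26 and 8.30 ± 3.40 CPM (log2 0.92, limma adjusted p = 0.423). Smoc2 passed both thresholds in edgeR's quasi-likelihood test (log2 -1.08, adjusted p = 0.0643) and DESeq2 (-1.10, adjusted p = 0.0197), but not in the edgeR exact test without TMM scaling (-0.99). Tinagl1 passed them in that exact test (1.16, adjusted p = 0.137), but not in the quasi-likelihood test (P = 0.0104) or DESeq2 (P = 0.0117). In limma, Smoc2 also passed with quantile normalization (-1.11), median-of-ratios scaling (-1.05), a pseudocount of 0.1 (-1.04), the correction for exon length (-1.06) and without EPS replicate 1 (-1.17), and Tinagl1 passed without EPS replicate 1 (1.25). Of all genes, 3.29% passed in the quasi-likelihood test, 3.06% in DESeq2 and 3.65% in the edgeR exact test.

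Among 11 laminin receptors and co-receptors, 1 fell and none rose, beside 0.439% and 0.966% of all genes, and 3 had an unadjusted p under 0.05 in limma, beside 11.6%. Bcam, the Lutheran glycoprotein that binds the laminin alpha 5 chain, was at 71.6, 61.5 and 88.2 CPM in control and at 32.6, 45.8, 42.3 and 21.1 CPM in EPS libraries. It fell by 1.08 on the log2 scale (SE 0.27, 95% interval -1.68 to -0.47, limma adjusted p = 0.160, exact permutation p = 0.0286), and every EPS library lay below every control library. Its adjusted p was 0.0149 in edgeR's quasi-likelihood test, 0.0110 in the edgeR exact test and 0.00319 in DESeq2. The call is lost without control replicate 4 (-0.94, limma adjusted p = 0.285) and without EPS replicate 4 (-0.86, which is under 2-fold). Syndecan-1 (Sdc1) had a log2 difference of -0.65 with overlapping groups (limma adjusted p = 0.400). The integrin alpha 3 chain Itga3 had EPS levels of 91.7, 105, 145 and 126 CPM, all above the controls at 78.9, 72.6 and 73.8 CPM, with a log2 difference of 0.61 that is under 2-fold (limma adjusted p = 0.219). Dystroglycan (Dag1), integrin alpha 7 (Itga7) and integrin beta 1 (Itgb1), which form the main laminin receptors of muscle, had log2 differences of -0.29, -0.42 and -0.15 and adjusted p of 0.674, 0.617 and 0.865. The median of the 11 receptors was -0.23.

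None of the 7 enzymes that build the laminin-binding glycan of dystroglycan passed (median log2 change 0.0084), with the widest differences in Large (-0.31) and Pomt1 (0.25). None had an unadjusted p under 0.05 in the main limma fit or edgeR, while 1 did in DESeq2. In other limma settings Large did so with quantile normalization (log2 -0.38), median-of-ratios scaling (-0.42) and the correction for exon length (-0.41). It also did so without control replicate 4 (-0.44). None of the 10 matrix assembly enzymes and chaperones passed either in limma, edgeR or DESeq2 with all 7 libraries (median -0.062), and 3 had an unadjusted p under 0.05 in limma, beside 11.6% of all genes. These were the lysyl oxidase Loxl2 (log2 0.90, adjusted p = 0.225), the lysyl hydroxylase Plod1 (0.67, adjusted p = 0.154) and the collagen chaperone Serpinh1 (-0.46, adjusted p = 0.338). In each of them the groups did not overlap, which held for 10.6% of all genes. Loxl2 passed both thresholds in limma without control replicate 3 (log2 1.15, adjusted p = 0.149). It was at 5.31, 10.4 and 6.15 CPM in control and 15.2, 12.0, 15.0 and 13.8 CPM in EPS libraries.

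Across the 7 libraries some of the laminin chains had similar profiles. Likeness was measured as the root mean square difference between 2 genes' log2(CPM + 1) values, each centred on its own mean, over the 45 pairs of members. The most alike pairs were Lama2 with Lama5 (0.141), Lama5 with Lamb2 (0.173) and Lamb1 with Lamc1 (0.193), followed by Lama2 with Lamb2 (0.208) and Lama2 with Hspg2 (0.225). The 8 pairs of Nid2 with members other than Nid1 were less alike, from 0.392 with Lamc1 to 0.638 with Hspg2, and Lama4 differed from Lamb1 by 0.519. The 9 pairs with Nid1 ran from 0.830 to 1.25, which its SD of 1.01 over the libraries sets in large part, so they do not show that it varies apart from the others. Control replicate 1 and EPS replicate 3 were both high for Hspg2 (0.62 and 0.66 above its mean), Lama2 (0.53 and 0.40) and Lama5 (0.43 and 0.49).

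The 10 genes have between 5174 and 16338 bases of annotated exon, and all but Nid1, Nid2 and Lamb2 are over 8 kb. For 1940 genes with over 8 kb of exon and a mean of at least 10 CPM, the median centred level was 0.13 in control replicate 1 and 0.15 in EPS replicate 3, and it was lowest in control replicate 4, at -0.26. For 925 genes under 2 kb the corresponding medians were -0.39, -0.26 and 0.17. For the genes of 4 to 8 kb, the class of Nid1, Nid2 and Lamb2, they were -0.017, 0.016 and -0.15. After a loess correction for exon length, the SD over the 7 libraries went from 0.37 to 0.23 for Lama2, from 0.27 to 0.17 for Lamc1, from 0.35 to 0.27 for Lama5 and from 0.53 to 0.45 for Hspg2. It moved less for Lamb2 (0.31 to 0.29), Lama4 (0.49 to 0.45), Nid2 (0.42 to 0.39) and Nid1 (1.01 to 0.95). The part of RNA quality or library preparation in this was not tested.

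**Figure D5:**
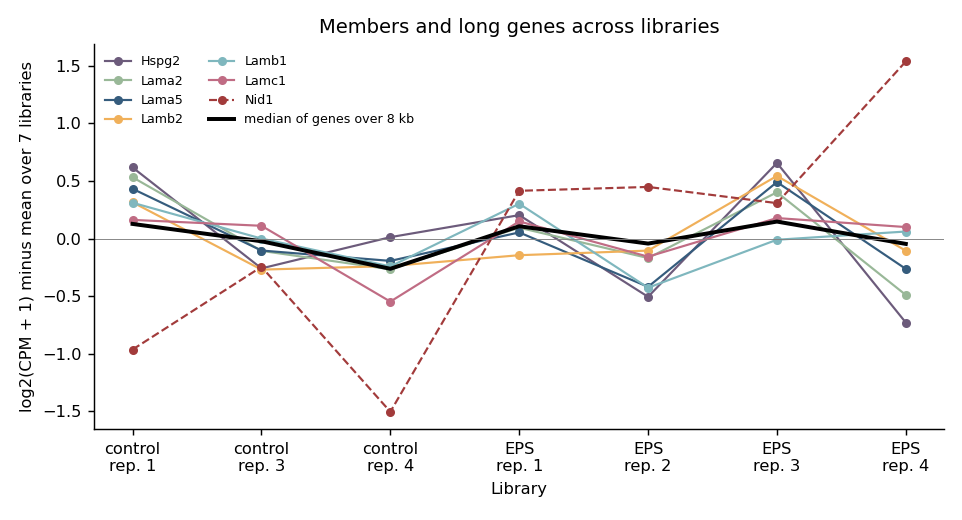
Centred log2(CPM + 1) of 7 members in each library, with the median of 1940 genes over 8 kb in black; lines only join the points of a gene, since libraries have no order. Control replicate 1 and EPS replicate 3 are high for Hspg2, Lama2 and Lama5, while Nid1 (dashed) runs from -1.50 in control replicate 4 to 1.54 in EPS replicate 4.

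The genes most like Nid1 by this measure, of 12255 compared over the 7 libraries, were Ccnb1 (0.200), Gas2l3 (0.212), Gprc5a (0.225), Ckap2 (0.241) and Blnk (0.255). Ccnb1 encodes cyclin B1 of mitotic entry, and Gas2l3 and Ckap2 encode cytoskeletal proteins of dividing cells. Gprc5a encodes a G protein-coupled receptor. Ccnb1 is also 1 of the 6 markers of proliferating myoblasts described below, and Gprc5a and Blnk are not. Ccnb1 was at 17.1, 37.9 and 11.4 CPM in control and 49.6, 46.5, 33.3 and 100.1 CPM in EPS libraries, and Gas2l3 was at 17.02, 21.2 and 8.86 CPM and at 41.8, 32.6, 34.7 and 62.5 CPM. These genes were selected for their likeness to Nid1 over the same libraries, so their direction, their extreme libraries and their calls follow from the selection. Gas2l3, Gprc5a, Ckap2 and Blnk rose by 1.43, 1.25, 1.21 and 1.51 on the log2 scale and passed both thresholds in limma, and Ccnb1 did not (1.38, limma adjusted p = 0.262).

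Markers of cell types were read beside these results. The 10 myotube markers were all found, at a summed 13592 to 18113 CPM in control and 11743 to 15249 CPM in EPS libraries. None of them passed both thresholds, but the groups of Actn2 did not overlap, with means of 75.6 and 36.6 CPM (log2 -0.99, limma adjusted p = 0.177), and Myog had a log2 difference of -1.07 (limma adjusted p = 0.437). The 6 markers of proliferating myoblasts summed to 313, 288 and 218 CPM in control and to 691, 333, 470 and 925 CPM in EPS libraries, which did not overlap and were highest in the library with the highest Nid1, although each of the 6 overlapped on its own and none passed both thresholds. Most of the sum came from Mki67 (means of 108 and 293 CPM) and Top2a (91.9 and 178 CPM), which mark cycling cells. Mki67, Top2a, Ccnb1 and Cdk1 had log2 differences of 1.27, 0.86, 1.38 and 0.94. Each had an unadjusted p under 0.05 in limma, as did 11.6% of all genes, with limma adjusted p of 0.262 to 0.427. The myoblast genes Pax7 (20.2 and 18.1 CPM) and Myf5 (6.11 and 7.41 CPM) had log2 differences of -0.12 and 0.20. The part of these 6 markers in the Nid1 result was not tested, and in bulk RNA more cells of a type cannot be told apart from more RNA per cell. Fibroblast markers summed to 89.4 to 158 CPM in control and 58.8 to 152 CPM in EPS libraries, most of it Dcn (means of 94.6 and 56.8 CPM), with Tcf21 at 0. None of them passed both thresholds, but the groups of Pdgfra (18.9 and 30.3 CPM, log2 0.70, limma adjusted p = 0.283) and Dpt (2.05 and 1.14 CPM, log2 -0.47, limma adjusted p = 0.427) did not overlap, and Lum had a log2 difference of -0.89 (limma adjusted p = 0.355). Each of the 5 endothelial, 4 Schwann cell, 4 adipocyte and 4 macrophage markers stayed under 3 CPM, and Cdh19, Plin1, Lep, Cidec and Emr1 were at 0 in all 7 libraries. The macrophage markers summed to 0.641 to 1.08 CPM in control and 1.26 to 2.76 CPM in EPS libraries, with Csf1r (0.0990 and 0.396 CPM) also apart between the groups.

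The libraries held 16616917 to 22120641 recovered reads, and 3 reads, taken as the floor, came to 0.136 to 0.181 CPM, which covers counting error only. Members other than Lama1 and Lama4 rested on 864 to 45369 reads a library. Control replicate 4 was unlike the rest at the low end, with 14014 genes above 0 beside 16144 to 16984 and 359 genes at 1 to 5 reads beside 2670 to 3181. Nid1 and Bcam each lost their call without this library, and Bcam also without EPS replicate 4. The part of this library's low end in those calls was not tested.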

How the data were processed

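Poly(A) RNA was made into 3 control and 4 EPS directional libraries and sequenced as paired-end reads. The submitters' processing notes name STAR 2.5.4b and GRCm38. The read counter, annotation, strand setting and treatment of reads shared by several genes are not given in the sources used here. The authors deposited CPM, counts per gene scaled to the library's total, without logarithm or replicate pooling. Whole reads were recovered from 100% of the values, with a tolerance of 0.02 reads.

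The CPM were analysed as log2(CPM + 1) with limma 3.58.1 (R 4.3.3), using a trended empirical Bayes prior, all 7 libraries and no covariate, over 19144 genes above 0 in at least 1 library. Calls needed both P under 0.01 before adjustment and a fold above 2. Single genes were also compared by an exact two-sided permutation test over 35 splits. The tests were tried on simulated reads first. Alternatives were edgeR 4.0.16 and DESeq2 1.42.0 on recovered reads, quantile and median-of-ratios scaling, pseudocounts of 0.1 or 0.5, dropping genes with a mean under 1 CPM, a P threshold of 0.001, a replicate block and leaving out each library, and, chosen after seeing the data, a loess correction for exon length. The edgeR exact test was run without TMM scaling. GENCODE M21 (GRCm38) gave exon lengths and positions for 24488 of 26607 genes (92.0%). The authors' annotation may differ.

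The members and lists were chosen with earlier results of these data known. All members were named. In each of the 6 lists, genes past both thresholds were named, and otherwise the 2 with the largest log2 change among those with a mean of at least 1 CPM. Lama3, Sdc1, Itga3, Dag1, Itga7, Itgb1, Col4a1 and Serpinh1 were named after their values were seen. The 5 genes nearest to Nid1 in centred log2 level were named. 1 listed gene is not reported here.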

Additional observations from a re-analysis of the deposited data

Results flagged for a closer look

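Of 24 quantities examined for an EPS library standing apart from the other 3, 2 did so. For Nid1, EPS replicate 4 (1352 CPM) was above the others (576 to 635 CPM) by 0.924 of the range of the group. For Lamb2, EPS replicate 3 (194 CPM) was above the others (120 to 123 CPM) by 0.954 of the range. The Dixon limit for 4 libraries is 0.829, and chance passes it in about 1 of 20 groups. The groups of Nid1 did not overlap, which leaving out its highest EPS library cannot change, and those of Lamb2 overlapped.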

How the results depend on the processing

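The log2 change of Nid1 was positive in all 17 alternatives, from 1.28 to 1.91, with adjusted p from 0.00224 to 0.285. Leaving out single libraries gave the lower end, 1.28 (limma adjusted p = 0.2815) without control replicate 4, where it lost its call. For the other members, which passed nowhere, the sign turned as follows, and the cause was not tested where none is given. Under a block for replicate number, fitted without EPS replicate 2 because it has no partner, Nid2 was -0.046, Lama5 0.049 and Lamb1 0.095, the same values as without that library and no block, so those turns come from leaving it out. With median-of-ratios scaling Lamb2 was -0.00048. With single libraries left out, Nid1 was 1.28 to 1.91, Nid2 -0.097 to 0.36, Lama1 0.096 to 0.53, Lama2 -0.25 to 0.15, Lama4 -0.15 to 0.32, Lama5 -0.25 to 0.11, Lamb1 -0.17 to 0.10, Lamb2 -0.054 to 0.30, Lamc1 -0.069 to 0.29 and Hspg2 -0.47 to 0.030.

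The count of members past both thresholds was 0 without control replicate 4. It was also 0 in the main limma fit at P under 0.001 and at an adjusted p under 0.05, and 1 otherwise. The count over all genes was 269, and went to 601 with a pseudocount of 0.1, 106 at P under 0.001 and 27 at an adjusted p under 0.05. It was 629 with edgeR's quasi-likelihood test, 698 with the edgeR exact test without TMM scaling and 585 with DESeq2. With single libraries left out it was 209 to 325. Higher genes made up 68.8% of calls in the main fit. The share was 51.6% with quantile scaling, 52.8% with median-of-ratios scaling and 51.5% after the length correction. It was 52.3% with edgeR's quasi-likelihood test, 54.2% with DESeq2 and 66.3% with the edgeR exact test without TMM scaling. With a minimum mean of 1 CPM it was 70.6%, with a pseudocount of 0.1 it was 74.0%, and with single libraries left out 58.6% to 72.7%. The median log2 change of genes with a mean of at least 1 CPM went from 0.10 to 0.0052 with quantile and -0.0048 with median-of-ratios scaling. The replicate block called 276 genes, with none at an adjusted p under 0.05 in limma and 1856 at an unadjusted p under 0.05. Deviations of same-numbered libraries had correlations over 12256 genes of 0.25, -0.45 and 0.068 for numbers 1, 3 and 4. Control replicates 1 and 3 were nearest to EPS replicates 3 and 2. These values cannot decide whether same-numbered cultures were paired, since levels also varied with exon length between libraries. Depth limits Lama1 most, at 11 to 55 reads a library, where its log2 change was 0.30 in limma with a pseudocount of 1 and 0.57 in the edgeR exact test.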
